A study of Mus musculus with 4 samples.

Results

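Long interspersed elements (LINEs) were examined in total testicular RNA of *Nef-sp*-/- mice, which lack the testis-specific 3′ to 5′ exoribonuclease NEF-sp, and of *Nef-sp*+/- mice. The members are the repeat features that the deposited table names as LINE, 116 elements with 108 sense and 112 antisense entries out of 699 repeat entries on each strand and 25745 entries in all, and 104 of them are listed on both strands. They were divided by name into 6 young mouse L1 subfamilies (L1Md), 101 older L1, 4 L2 and 5 elements of the CR1 and RTE families. The older L1 were divided further into 27 elements with rodent names (Lx, L1_Mus, L1_Mur, L1_Rod and L1VL) and 74 others, among them the L1M subfamilies, HAL1 and L1_Mm. The division went by the start of the name, so L1_Mm and MusHAL1 are among the others despite their mouse names. "Sense" reads run in the direction of the annotated repeat, and the reads of an element are summed over all its genomic copies.

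LINEs are retrotransposons without long terminal repeats. A full-length L1 carries its own promoter and encodes an RNA-binding protein and a protein with endonuclease and reverse transcriptase activities, which copy its RNA back into the genome. Most genomic copies are truncated or mutated, and in the mouse the subfamilies able to move belong to the L1Md group. L2 and CR1 are ancient families that no longer move in mammals. In male germ cells, L1 is held in check by PIWI proteins and their piRNAs, by DNA methylation and by repressive chromatin, so that testis RNA is a common place to look for L1 derepression.

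The mice were C57Bl/6J males at postnatal day 60. The mutant allele was made with Cas9 nickase and paired guide RNAs in embryos of that strain, and it lacks 23 bp of the *Nef-sp* coding sequence, which shifts the reading frame. The controls carried 1 such allele, so no wild-type library was compared. There were 2 strand-specific, ribosomal RNA-depleted libraries of each genotype. The labels call them replicates without saying that each came from a separate animal, and the p-values then measure only the spread between these libraries.

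The libraries held between 20659865 and 34442517 reads in the table. *Nef-sp* (2610020H08Rik) exon sense reads were 1843 and 1693 normalized counts in *Nef-sp*+/- against 407 and 497 in *Nef-sp*-/-. Markers of spermatids, such as the protamines, made up between 14402 and 17663 RPM (reads scaled to the total of the table), spermatocyte markers between 1137 and 1238, spermatogonial markers between 249 and 271, and Sertoli cell markers between 851 and 905. Markers of 3 other cell types were lower in both *Nef-sp*-/- libraries than in either *Nef-sp*+/- library. Leydig cell markers were 815 and 806 RPM against 760 and 657, those of blood 19.8 and 22.5 against 17.9 and 18.6, and those of macrophages 7.89 and 8.77 against 7.11 and 7.06, and none of their tested genes passed the threshold. The macrophage and blood sums were small, with 3 tested genes each. The share of all genes that separated the genotypes was not counted, so these separations are not read as a result about the cells. In whole testis, fewer cells of a type and less RNA per cell cannot be told apart.

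LINE reads were a small part of the testis transcriptome. Sense LINE reads made up 0.917% of all reads in replicate 1 of *Nef-sp*+/- and 0.831% in its replicate 2, against 0.837% and 0.964% in the respective libraries of *Nef-sp*-/-. Antisense LINE reads made up 0.750% and 0.594% in *Nef-sp*+/- against 0.621% and 0.833% in *Nef-sp*-/-. The genotypes overlapped on both strands, since within each genotype one library lay clearly above the other. Counting error was far smaller than these differences, with Wilson 95% intervals no wider than 0.00421 points to either side. LINEs supplied between 5.73% and 6.55% of repeat sense reads and between 30.6% and 35.3% of repeat antisense reads. These denominators differ, since structural RNAs made up most repeat sense reads. In *Nef-sp*+/- replicate 1, sense repeats classed as srpRNA, RNA, rRNA and snRNA were 5.09%, 2.78%, 2.34% and 1.69% of all reads. All repeat sense reads were 14.9% there. Antisense rRNA repeats were 0.0632% of all reads in that library, where all repeat antisense reads were 2.13%.

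A few elements provided most of the LINE reads, the first 6 holding 52.7% of them in sense and 50.3% in antisense orientation. Over the 4 libraries, the 6 L1Md subfamilies gave 32.7% of the sense and 44.3% of the antisense LINE reads. The 27 rodent-named L1 gave 42.5% of the sense and 28.6% of the antisense reads, and the other L1 gave 15.9% and 16.7%. L2 gave 5.19% of sense and 7.77% of antisense reads, and CR1 and RTE gave 3.79% and 2.66%. The element with the most sense reads was not an L1Md but L1_Mus2, with 135784 reads or 15.9% of all sense LINE reads. It was followed by L1Md_T (110509 reads), L1Md_F2 (75931 reads) and L1Md_A (55927 reads). In antisense orientation, L1Md_T (108415 reads), L1Md_F2 (103815 reads) and L1Md_A (50376 reads) came first, followed by Lx (27018 reads) and HAL1-2a_MD (24901 reads). These are reads per element and not levels per copy or per length, since the number and length of the copies were not used.

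No LINE element passed the threshold for a difference between genotypes on either strand. In sense orientation, 0 of 99 tested elements had an adjusted p below 0.05 from edgeR's quasi-likelihood test, where 0.692% of the 578 tested repeat sense features did. At an unadjusted p below 0.05 there was 1 LINE element, against 5.02% of all tested features. In antisense orientation, 0 of 102 tested elements had an adjusted p below 0.05 in edgeR, as did 0% of the 553 tested repeat antisense features. At an unadjusted p below 0.05 there were 2 LINE elements, against 2.35% of all features. These counts at an unadjusted p moved with the library left out. Such fits leave 1 library in a genotype, so their counts are not given. DESeq2 called 0 elements on both strands, with 0 sense and 1 antisense element at an unadjusted p below 0.05. The 9 sense and 10 antisense entries below the expression filter had at most 45 and 30 reads over the 4 libraries and were not tested.

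The fold changes of LINE elements lay close to 0. Here and below, a log2 fold change is *Nef-sp*-/- over *Nef-sp*+/-. The median over the tested LINE elements was 0.01 in sense and 0.03 in antisense orientation, where it was 0.01 for all tested repeats on both strands. Sense values ranged from −0.39 to 0.24 and antisense values from −0.48 to 0.57, and the wider antisense range came from elements with few reads. Of the sense elements, 54 of 99 were above 0 and 45 below, and of the antisense elements 63 of 102 were above and 39 below. This split moved with the scaling. With all reads of the table as library size, 63 sense and 79 antisense elements were above 0, and in a single fit over all categories 67 and 82 were. All tested repeats shifted as well. Their median log2 fold change was 0.02 in sense and 0.05 in antisense orientation under the former, and 0.04 and 0.07 under the latter. Both *Nef-sp*-/- libraries lay on one side of both *Nef-sp*+/- libraries for 25 of the 99 sense elements, 10 higher and 15 lower, and for 13 of the 102 antisense elements, 6 higher and 7 lower. Over all tested repeats, such separation was seen in 29.6% of sense and 24.2% of antisense features.

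**Figure D1:**
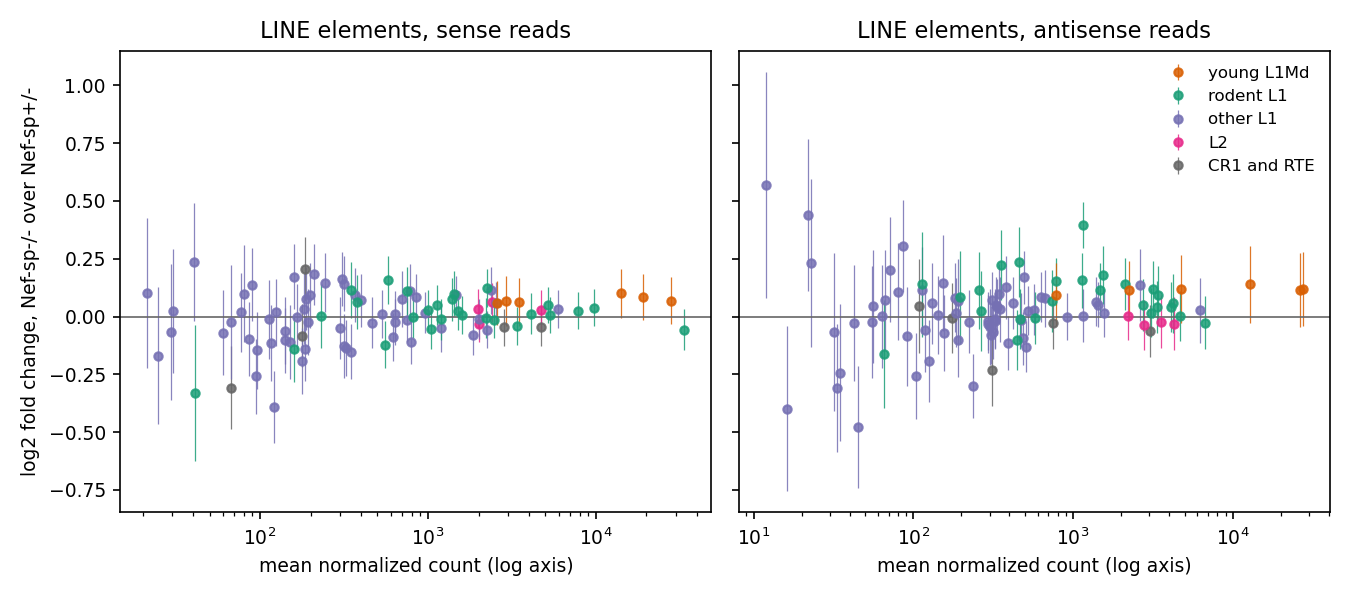
Log2 fold change of each tested LINE element (*Nef-sp*-/- over *Nef-sp*+/-, vertical axis) against its mean normalized count over both genotypes (log axis), for sense (left) and antisense (right) reads; colours mark the LINE groups and bars are standard errors from edgeR. The L1Md subfamilies sit between 0.06 and 0.14, and the spread widens toward few reads, to between −0.39 and 0.24 in sense and between −0.48 and 0.57 in antisense orientation.

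The L1Md subfamilies did not separate the genotypes. L1Md_A sense reads were 14612 and 12674 normalized counts in *Nef-sp*+/- against 13073 and 16176 in *Nef-sp*-/-. L1Md_T sense reads were 29021 and 25409 in *Nef-sp*+/- against 25848 and 31251 in *Nef-sp*-/-. L1Md_F2 sense reads were 19667 and 17506 in *Nef-sp*+/- against 18006 and 21443 in *Nef-sp*-/-. In each of these subfamilies *Nef-sp*-/- replicate 2 was highest, followed by *Nef-sp*+/- replicate 1, while *Nef-sp*-/- replicate 1 lay close to the lowest library. The less abundant subfamilies had the same pair of libraries on top. L1Md_F3 had 3641 and 3203 normalized counts in *Nef-sp*+/- against 3211 and 3930 in *Nef-sp*-/-. L1Md_F had 3075 and 2658 in *Nef-sp*+/- against 2648 and 3351 in *Nef-sp*-/-. L1Md_Gf had 2695 and 2363 in *Nef-sp*+/- against 2434 and 2821 in *Nef-sp*-/-. The genotypes overlapped in all 6 subfamilies.

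The sense log2 fold changes of the L1Md subfamilies ran from 0.06 for L1Md_Gf to 0.10 for L1Md_A, with standard errors between 0.0957 and 0.11. Their 95% intervals from the edgeR fit together spanned −0.17 to 0.33. That fit shares its estimate of spread among the tested repeat features. These intervals therefore do not rest on the spread of L1Md alone and are not a bound on its change. The adjusted p from edgeR was 0.998 for each subfamily. Antisense log2 fold changes ran from 0.09 for L1Md_Gf to 0.14 for L1Md_A, with intervals that together spanned −0.23 to 0.50 and an adjusted p of 0.9997 for each. L1Md_A antisense reads were 13737 and 10578 normalized counts in *Nef-sp*+/- against 11089 and 15676 in *Nef-sp*-/-. L1Md_T antisense reads were 29107 and 23496 in *Nef-sp*+/- against 24742 and 32372 in *Nef-sp*-/-. L1Md_F2 antisense reads were 27943 and 22496 in *Nef-sp*+/- against 23454 and 31142 in *Nef-sp*-/-. The antisense reads had the same pair of libraries on top, with a wider spread. L1Md_F3 ranged from 4050 to 5647, L1Md_F from 1969 to 2610 and L1Md_Gf from 669 to 905 normalized counts, with *Nef-sp*+/- replicate 2 lowest and *Nef-sp*-/- replicate 2 highest in each. The positive sign of these values rested on 2 libraries. Without *Nef-sp*-/- replicate 2, all 6 subfamilies had a negative log2 fold change on both strands, for example −0.07 in sense and −0.13 in antisense orientation for L1Md_A. Without *Nef-sp*+/- replicate 2, all were negative but the sense reads of L1Md_F2, between −0.08 and 0.00. The subfamilies are similar in sequence, and how reads with several genomic matches were assigned is not given in the sources used here, so their values are not independent of each other.

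**Figure D2:**
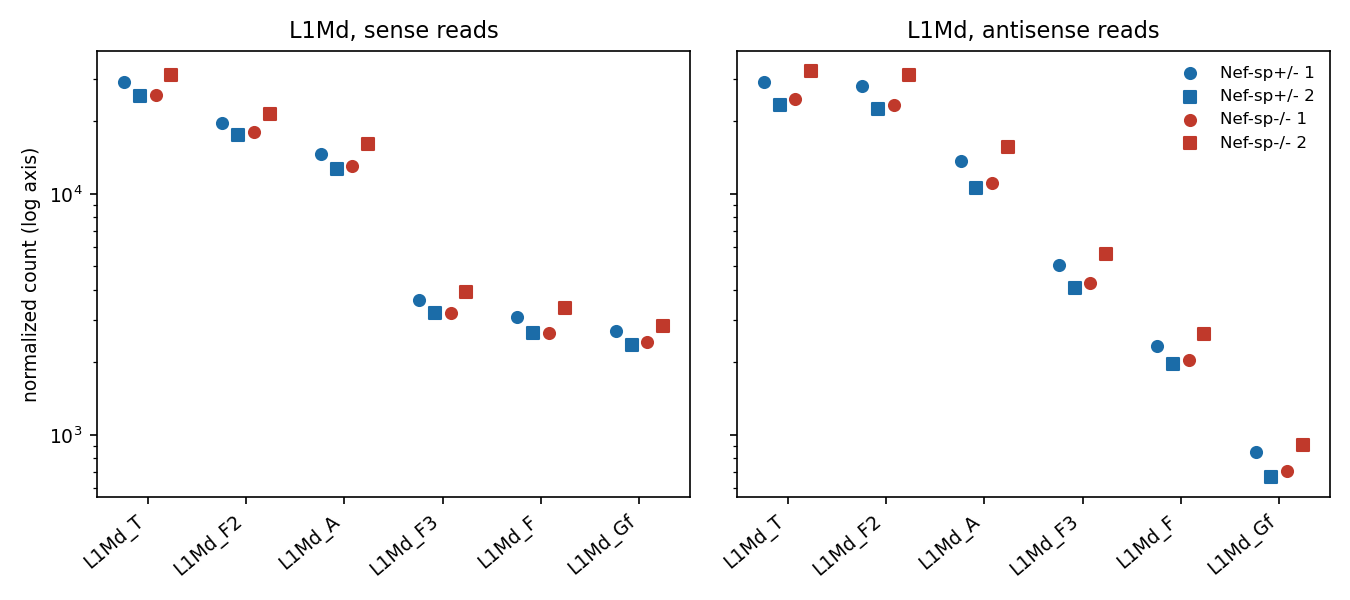
Normalized counts (log axis) of the 6 L1Md subfamilies in each library, sense reads on the left and antisense reads on the right; blue marks *Nef-sp*+/- and red *Nef-sp*-/-, circles replicate 1 and squares replicate 2. In every subfamily and on both strands *Nef-sp*-/- replicate 2 is highest and *Nef-sp*+/- replicate 1 next, so the colours interleave.

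Summed over the subfamilies, L1Md sense reads were 0.283% ± 0.0417 of all reads in *Nef-sp*+/- and 0.303% ± 0.0617 in *Nef-sp*-/- (SD, n = 2 each, exact two-sided permutation test p = 0.667). Antisense reads were 0.295% ± 0.0704 and 0.330% ± 0.101 (SD, n = 2 each, exact permutation p = 0.667). With 2 libraries against 2 this test cannot go below 0.33. The replicates of a genotype differed from each other by more than the genotypes did. L1Md antisense reads were 1.41 times higher in *Nef-sp*+/- replicate 1 than in replicate 2, and 1.55 times higher in *Nef-sp*-/- replicate 2 than in replicate 1, while the mean of *Nef-sp*-/- was 1.12 times that of *Nef-sp*+/-. In sense orientation the same ratios were 1.23, 1.34 and 1.07.

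This spread between libraries was wider for the L1Md subfamilies than for the other LINE groups on both strands. The ratio of the highest to the lowest library was 1.64 for L1Md antisense and 1.37 for L1Md sense reads. For rodent-named L1 it was 1.35 in antisense and 1.05 in sense orientation, and for the other L1 1.19 and 1.13. For L2 it was 1.05 in antisense and 1.08 in sense orientation, and for CR1 and RTE 1.03 and 1.04. Of the repeat classes of retroviral origin, ERVL, ERV1 and ERVK had antisense ratios of 1.28, 1.25 and 1.23 and sense ratios of 1.19, 1.03 and 1.19. Ratios above those of L1Md were seen for repeat rRNA in antisense (3.29) and for scRNA in sense orientation (1.39). The libraries stood in the same order in each antisense L1 group, with *Nef-sp*-/- replicate 2 highest, followed by *Nef-sp*+/- replicate 1, *Nef-sp*-/- replicate 1 and *Nef-sp*+/- replicate 2. *Nef-sp*-/- replicate 2 and *Nef-sp*+/- replicate 1 were the highest libraries for 6 of 6 L1Md subfamilies on each strand. They were also highest for 23 of 26 rodent-named L1 in antisense orientation, 10 of 27 in sense orientation, and 26.9% and 24% of all tested repeat antisense and sense features. This count was made after the order was seen.

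**Figure D3:**
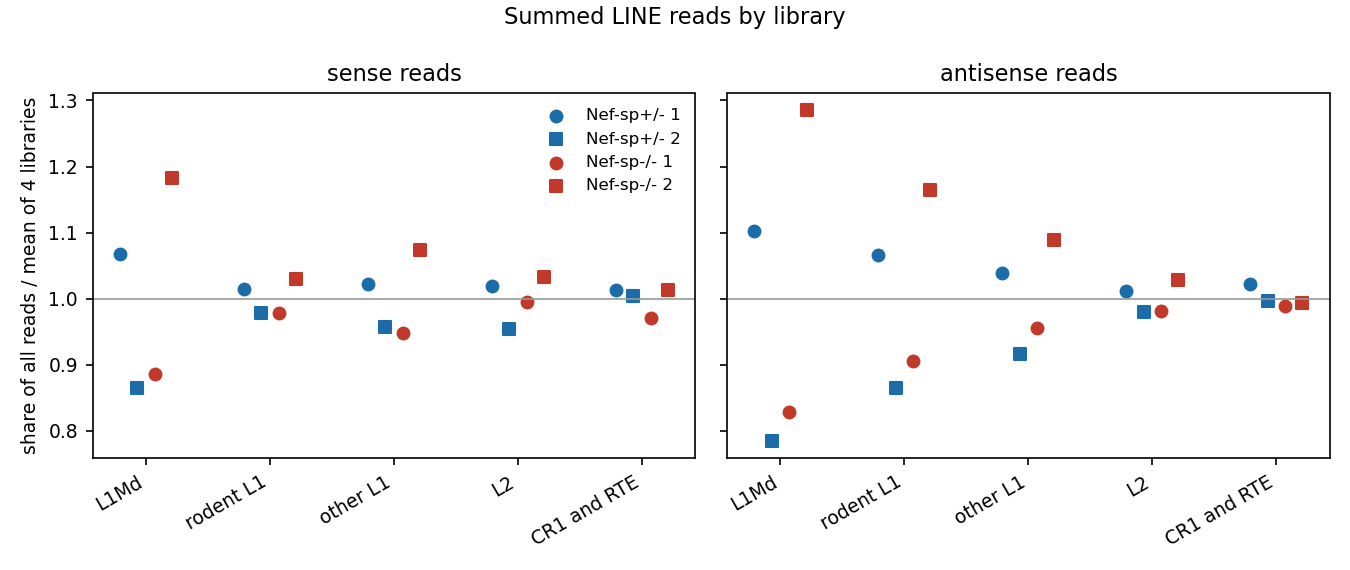
Summed reads of each LINE group as a share of all reads of the library, divided by the mean of the 4 libraries (vertical axis, no unit), for sense (left) and antisense (right) reads; blue marks *Nef-sp*+/- and red *Nef-sp*-/-, circles replicate 1 and squares replicate 2. The libraries fan out for L1Md, where the highest is 1.64 times the lowest in antisense orientation, and draw together for L2 and for CR1 and RTE.

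Several other values also had *Nef-sp*-/- replicate 2 and *Nef-sp*+/- replicate 1 as the highest libraries, though not all in the same order. This comparison was made after the order of the L1 reads was seen. Gene intron sense reads were 2.39% of all reads in *Nef-sp*-/- replicate 2 and 2.32% in *Nef-sp*+/- replicate 1, against 2.24% and 2.22% in the other two. Spermatogonial markers were 271 and 260 RPM in the former pair, against 253 and 249 in *Nef-sp*-/- replicate 1 and *Nef-sp*+/- replicate 2. The 7 spermatocyte markers listed, such as *Sycp1* and *Sycp3*, were 1204 and 1238 in that pair against 1157 and 1137. Sertoli cell markers were 904.9 and 904.7 in that pair against 851 and 878. Spermatid markers were lower in that pair, with 17090 and 14402 RPM against 17663 and 17494, and only *Nef-sp*+/- replicate 1 lay far below. Markers of Leydig cells, macrophages and blood did not have that pair on top. Gene intron antisense reads were between 2.69% and 2.74% in all libraries. The part of any of these in the spread of L1 reads was not tested.

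Older L1 had shares of all reads that differed little between genotypes. Their sense reads were 0.512% ± 0.0165 in *Nef-sp*+/- and 0.518% ± 0.0258 in *Nef-sp*-/- (SD, n = 2 each, exact permutation p = 1). Their antisense reads were 0.306% ± 0.0384 and 0.325% ± 0.0473 (SD, n = 2 each, exact permutation p = 0.667). The ratio of L1Md to older L1 sense reads, which does not depend on the scaling between libraries, was 0.596 and 0.506 in *Nef-sp*+/- against 0.518 and 0.646 in *Nef-sp*-/- (exact permutation p = 0.667 with n = 2 each). The antisense ratio was 1.04 and 0.880 in *Nef-sp*+/- against 0.889 and 1.12 in *Nef-sp*-/-. On both strands the ratio was high in 1 library of each genotype and low in the other.

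The 27 rodent-named L1 had a median log2 fold change of 0.01 in sense orientation, with 17 above 0, and 26 of them tested in antisense orientation had a median of 0.08, with 21 above 0. L1_Mus2 sense reads were 32793 and 35930 normalized counts in *Nef-sp*+/- against 34749 and 31342 in *Nef-sp*-/- (log2 fold change −0.06, standard error 0.0895, adjusted p = 0.998 in edgeR). By normalized count, L1_Mus2 was highest in *Nef-sp*+/- replicate 2, where the summed share of L1Md sense reads was lowest. The scaled library size of repeat sense reads, relative to the total, was 1.04 and 0.961 in *Nef-sp*+/-. It was 0.962 and 1.06 in *Nef-sp*-/-, so the libraries stood in the order of the L1Md share. The part of this scaling in the order of L1_Mus2 was not tested. Lx5 sense reads ranged from 9288 to 10029 and L1_Mur1 sense reads from 7619 to 8254 normalized counts, with overlapping genotypes and log2 fold changes of 0.04 and 0.03. The antisense reads of Lx ranged from 6509 to 6971, those of Lx8 from 4563 to 4717 and those of L1_Mus1 from 3756 to 4673. Their log2 fold changes were −0.03, 0.00 and 0.06. Lx2B sense reads were 2105 and 2188 in *Nef-sp*+/- against 2275 and 2404 in *Nef-sp*-/- (log2 fold change 0.12, standard error 0.0804, adjusted p = 0.998 in edgeR). L1VL2 sense reads were 517 and 577 in *Nef-sp*+/- against 633 and 591 in *Nef-sp*-/- (log2 fold change 0.16). For both elements the genotypes did not overlap, by margins smaller than or near the spread between replicates.

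The smallest p of any LINE element belonged to the antisense reads of Lx2, an older murine L1 subfamily. They were 995 and 997 normalized counts in *Nef-sp*+/- against 1350 and 1272 in *Nef-sp*-/-, from raw counts of 896, 1331, 1112 and 1197 in the same order. The genotypes did not overlap, and the difference was larger than the spread between replicates. The log2 fold change was 0.40 (standard error 0.0983, 95% interval 0.18 to 0.61), with an adjusted p of 0.176 over the 553 features in edgeR. Lx2 sense reads were 1015 and 966 in *Nef-sp*+/- against 973 and 1043 in *Nef-sp*-/- (log2 fold change 0.03), so the sense strand overlapped between genotypes. Of the reads of Lx2, 50.1% and 49.8% were sense in *Nef-sp*+/-, against 42.3% and 44.1% in *Nef-sp*-/-. Wilson 95% intervals were at most 2.31 points to either side, but they cover counting error only and not the spread between libraries. The edgeR comparison of the strands over libraries, given below, had an adjusted p of 0.709 for Lx2. Lx2A1, the related element with the next smallest p among antisense rodent-named L1, had 459 and 386 against 410 and 577 normalized counts, and its genotypes overlapped (log2 fold change 0.24).

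Of the other L1, L1MEe had the smallest sense p. Its reads were 124 and 148 normalized counts in *Nef-sp*+/- against 104 and 106 in *Nef-sp*-/- (log2 fold change −0.39, standard error 0.156, adjusted p = 0.744 in edgeR). L1MD1 sense reads were 108 and 99.5 against 79.9 and 92.6 (log2 fold change −0.26). In antisense orientation, L1MA4A reads were 259 and 264 in *Nef-sp*+/- against 229 and 196 in *Nef-sp*-/- (log2 fold change −0.30, standard error 0.139, adjusted p = 0.9997 from edgeR). L1MA10 antisense reads were 57.7 and 48.7 against 30.3 and 44.6, and L1ME2 antisense reads were 73.3 and 79.4 against 98.3 and 91.4, with log2 fold changes of −0.48 and 0.31. The former ran from −0.79 without *Nef-sp*-/- replicate 2 to −0.24 without *Nef-sp*-/- replicate 1. These old elements separated the genotypes but had few reads, and their directions differed. They were named for their small p, which favours such separation. It was seen in 17 of 57 sense and 11 of 61 antisense elements of the other L1. Over all tested repeats it was seen in 29.6% of sense and 24.2% of antisense features.

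The median of the other L1 was −0.01 over 57 tested sense elements, 27 of them above 0, and 0.01 over 61 tested antisense elements, 34 of them above 0. Their most abundant members overlapped between genotypes. L1_Mm sense reads ranged from 5701 to 6379 and its antisense reads from 2172 to 3214 normalized counts. L1MEf sense reads ranged from 2294 to 2660 and those of HAL1-3A_ME from 2086 to 2658. HAL1-2a_MD antisense reads were 5802 and 6521 in *Nef-sp*+/- against 7173 and 5382 in *Nef-sp*-/- (log2 fold change 0.03). HAL1 elements are relatives of L1 that keep only the reading frame of the RNA-binding protein. L1M2 antisense reads ranged from 1482 to 1656.

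L2, CR1 and RTE varied little between libraries. L2 made up 0.0453% ± 0.00212 of all reads in *Nef-sp*+/- and 0.0465% ± 0.00119 in *Nef-sp*-/- in sense orientation (SD, n = 2 each, exact permutation p = 0.667), and 0.0531% ± 0.00117 and 0.0536% ± 0.00177 in antisense orientation (SD, n = 2 each, exact permutation p = 0.667). CR1 and RTE antisense reads were 0.01859% and 0.01811% of all reads in *Nef-sp*+/- against 0.01797% and 0.01806% in *Nef-sp*-/-, and by this share, alone among the LINE groups, the genotypes did not overlap (exact permutation p = 0.33, the smallest possible with n = 2 each). The difference was −0.000338 points, and −9.66e-05 points without *Nef-sp*+/- replicate 1. In sense orientation the genotypes overlapped, with shares between 0.0323% and 0.0337%. The sense log2 fold changes of L2a, L2b and L2c were −0.03, 0.03 and 0.06, and the antisense ones −0.03, −0.04 and −0.02. L2b had the most sense reads, from 4386 to 4974 normalized counts, and L2a the most antisense reads, from 3930 to 4540. L4, of the RTE family, had 4568 and 5041 sense reads in *Nef-sp*+/- against 4809 and 4513 in *Nef-sp*-/-. L3, of the CR1 family, had between 2729 and 2946 sense and between 2754 and 3215 antisense normalized counts. The related L3b had 76.6 and 71.7 sense normalized counts in *Nef-sp*+/- against 62.0 and 57.3 in *Nef-sp*-/- (log2 fold change −0.31, standard error 0.18, adjusted p = 0.998 in edgeR). Its antisense reads, 293 and 371 against 324 and 247, overlapped between genotypes. L5 sense reads were 170.2 and 172 in *Nef-sp*+/- against 185 and 209 in *Nef-sp*-/- (log2 fold change 0.21, adjusted p = 0.998 in edgeR). The log2 fold change of L5 was 0.11 without *Nef-sp*-/- replicate 2 and 0.29 without *Nef-sp*-/- replicate 1.

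The strand from which LINE reads came differed far more between elements than between libraries. L1Md reads were split almost evenly, with 47.5% and 50.8% sense in *Nef-sp*+/- against 50.0% and 46.3% in *Nef-sp*-/- (exact permutation p = 0.667 with n = 2 each). Older L1 reads were 61.2% and 64.3% sense in *Nef-sp*+/- against 63.2% and 59.95% in *Nef-sp*-/- (exact permutation p = 0.667 with n = 2 each). Among the L1Md subfamilies, the sense percentage over all libraries was 42.2% for L1Md_F2, 42.4% for L1Md_F3, 50.5% for L1Md_T, 52.6% for L1Md_A and 56.7% for L1Md_F. L1Md_Gf stood apart with 76.8%, and lay between 75.0% and 78.3% in every library.

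Many older elements were read mainly from a single strand. Of the 98 elements listed on both strands with at least 100 reads in sum, 20 had over 80% sense reads, 10 had under 20%, and 34 lay between 40% and 60%. L1_Mur1 reached 95.7% sense, with 94.3% to 96.5% in the 4 libraries, and L1_Mus2 90.9%, with 88.6% to 92.3%. L1MEf was at 93.1% and L4 at 86.4%. At the other end, HAL1-2a_MD was at 2.80%, with 2.10% to 3.10% in the 4 libraries, while HAL1-3A_ME was at 92.6%. L1VL4 was at 8.38%, Lx at 15.0% and L3b at 17.7% sense. The L2 elements ran from 31.8% sense for L2a to 62.7% for L2b. The median range of an element over the 4 libraries was 4.54 points, small beside these differences between elements, and the largest was 17.2 points, for Lx2A with 186 reads. Elements listed on 1 strand only are not in these counts, and 3 of them had at least 100 reads, L1M2b with 390 sense reads and L1M3a and L1M6 with 264 and 134 antisense reads.

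**Figure D4:**
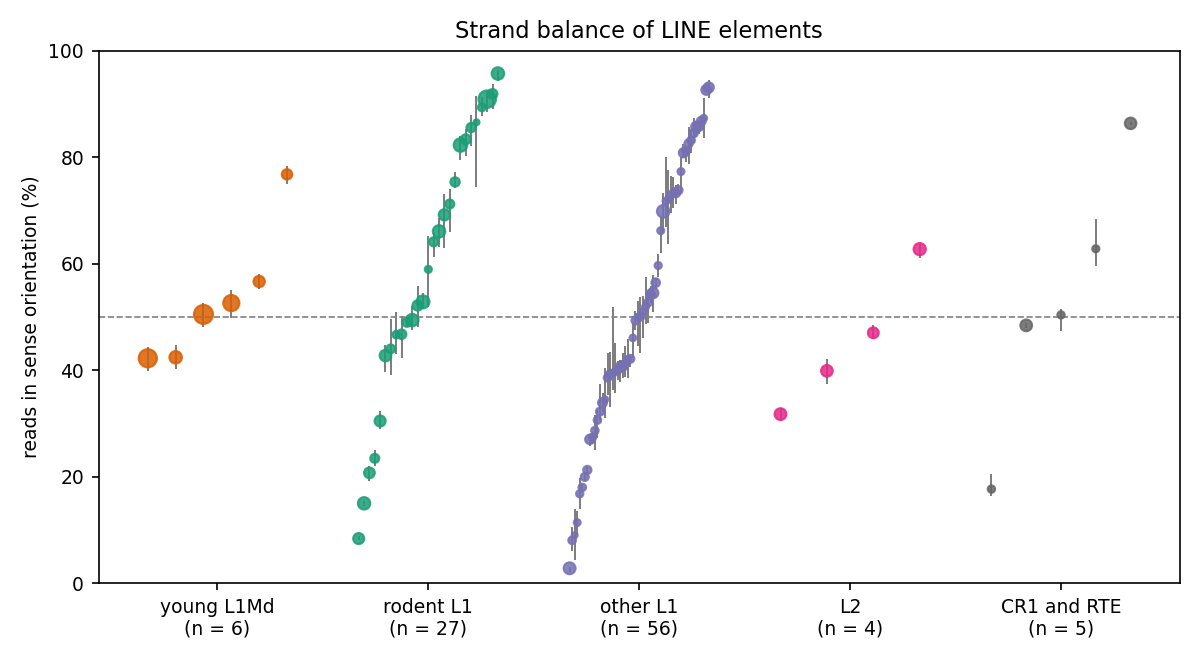
Percentage of reads in sense orientation for each LINE element listed on both strands with at least 100 reads in sum, sorted within its group; points are the 4 libraries pooled, their size grows with the number of reads, and vertical lines span the lowest to the highest library. L1Md subfamilies lie near the dashed 50% line except L1Md_Gf at 76.8%, while rodent-named and other L1 run from 2.80% to 95.7%.

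The change of the sense reads was compared with that of the antisense reads of the same element in 1 model over both strands, with each library as a block. Of 96 LINE elements tested, 0 had an adjusted p below 0.05 from edgeR, as did 0% of the 478 repeats tested, and 2 had an unadjusted p below 0.05, against 3.56% of the repeats. The latter count moved when a library was left out, in fits that leave 1 library in a genotype. The sense change was below the antisense change for 71 of the 96 elements, with a median difference of −0.09 on the log2 scale. It was also below for 296 of the 478 repeats tested, with a median of −0.05. With DESeq2's size factors the median of the LINE elements was −0.05, without a median of all repeats beside it. The tilt is therefore not read as a result about LINEs. All 6 L1Md subfamilies had a negative difference, from −0.10 to −0.07. Lx2 had the smallest p, with a difference of −0.41 (standard error 0.111, adjusted p = 0.709 from edgeR). Next came L1MA4A with 0.43 (standard error 0.176, adjusted p = 0.977 from edgeR), for which 37.7% and 35.6% of reads were sense in *Nef-sp*+/- against 43.2% and 45.1% in *Nef-sp*-/-. The differences of L1MEe, L1MA6 and L1MCa were −0.35, −0.34 and −0.22, each with an adjusted p of 0.977, and leaving out a library moved them to between −0.59 and −0.11 for L1MA6 and between −0.38 and −0.0540 for L1MCa. For Lx2, leaving out a library moved the difference to between −0.51 and −0.31.

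Genes that silence or restrict L1 were measured in the same libraries. Of a list of 47 such genes, 38 were listed in the gene exon sense category and 35 were tested. None had an adjusted p below 0.05 in edgeR over 10728 genes, of which 0.00932% passed, and 2 had an unadjusted p below 0.05, against 4.8% of all genes. This count of control genes moved when a library was left out, in fits that leave 1 library in a genotype. In DESeq2, 0 of them had an adjusted p below 0.05 and 0 an unadjusted one. Their median log2 fold change was −0.05, against 0.00 for all genes, with 11 above 0 and 24 below. *Piwil2*, which encodes the PIWI protein MILI, had 6610 and 5815 normalized counts in *Nef-sp*+/- against 5349 and 6345 in *Nef-sp*-/- (log2 fold change −0.09). *Piwil1*, which encodes MIWI, had 6934 and 6544 against 5767 and 6457 (log2 fold change −0.14), with a gap between genotypes narrower than the spread of replicates. *Mov10l1*, the helicase needed for piRNA precursors, had 2422 and 2035 against 2060 and 2421 (log2 fold change 0.01), and *Mael* between 26347 and 27038. *Asz1* was between 527 and 565. *Dnmt3l*, the cofactor of germ cell DNA methylation, had few reads, with 49.5 and 66.2 against 60.1 and 80.5 (log2 fold change 0.24), as had *Morc1*, with between 47.3 and 57.0. *Tex19.1* was between 161 and 196, and *Setdb1*, a histone methyltransferase, between 1557 and 1761. *Trim28*, which encodes the corepressor that recruits SETDB1, had 10114 and 9806 against 9430 and 8731 (log2 fold change −0.13), and the genotypes did not overlap. The same held for *Uhrf1*, a cofactor of maintenance DNA methylation, with 2155 and 1967 against 1837 and 1860 (log2 fold change −0.15, adjusted p = 0.954 from edgeR), which with *Adar* was below 0.05 before adjustment and was named after its value was seen. How many of all tested genes separated the genotypes in this way was not counted, so these separations are not read as a result about the list. The smallest p of the list was that of *Adar*, an RNA-editing deaminase chosen here after its value was seen, with 27.6 and 23.9 normalized counts in *Nef-sp*+/- against 11.5 and 13.0 in *Nef-sp*-/- (log2 fold change −1.04, adjusted p = 0.954 from edgeR).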

How the data were processed

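Total RNA from whole testes was depleted of ribosomal RNA and sequenced as stranded TruSeq libraries with 50 cycles. The authors aligned reads to mm9, kept perfect matches and counted reads per feature in 10 categories of annotation with in-house tools. The deposited table holds whole-number counts for 25745 features with at least 5 reads. How reads with several matches were counted is not given in the sources used here. The authors' own columns, a mean normalized signal, log2 fold changes and p-values from DESeq2, were not used.

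From these counts, each category was fitted over all its features in R 4.3.3 with edgeR 4.0.16 (TMM normalization, filterByExpr with a minimum count of 10, quasi-likelihood test, Benjamini-Hochberg adjustment, threshold 0.05), genotype being the only term. Normalized counts are counts per TMM-scaled library, brought to the mean library size. Sense and antisense changes were compared in 1 edgeR model with a term for each library. Scripts were tested on simulated data. Shares were compared by two-sided exact permutation tests over libraries, and intervals cover counting error only, since reads carried no molecular identifiers. DESeq2 1.42.0, other scalings, filters, a replicate block and leaving out each library were tried as alternatives. Counts of replicates differed by more than sampling noise, so all 4 libraries were kept as separate samples.

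The members, groups and gene lists were chosen with earlier results of these data known. Named elements are the 3 with most reads per group and strand, all L1Md, the 5 with the smallest p per strand and in the strand comparison, and those with the highest and lowest percentage of sense reads per group, and any further element was named after its values were seen. Of the 47 control genes, *Piwil4*, *Tdrd5*, *Tdrd9*, *Gtsf1*, *Pnldc1*, *Spocd1*, *Dnmt3c*, *Fam208a* and *L1td1* were not matched to the table, and *Dnmt3b*, *Trex1* and *Apobec3* were below the filter. Marker lists were read as sums, and 0 of their tested genes passed the threshold.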

Additional observations from a re-analysis of the deposited data

How the results depend on the processing

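The count of LINE elements past the threshold was 0 in sense orientation under every alternative run, and 0 in antisense orientation under all but 1. The replicate numbers of the labels did not pair the libraries, since same-numbered libraries deviated in opposite directions (r = −0.22 over 578 sense and −0.31 over 553 antisense repeat features, and −0.09 over 10728 genes). With the replicate number as a block, 0 sense and 0 antisense elements and 0 control genes passed. With the numbers crossed in the block, an alternative chosen after seeing the data, 1 antisense element (Lx2), 0 sense elements and 0 control genes passed. The counts of LINE elements at an unadjusted p below 0.05 rose as well. Without the share over all repeats beside them, they are not read as a result about LINEs. Fits without a library leave 1 library in a genotype, so their calls are not listed for the strand comparison or for single elements.

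The differences in share of reads (*Nef-sp*-/- minus *Nef-sp*+/-, in points) changed sign with the library left out, except that of CR1 and RTE antisense reads. They ran from −0.0237 to 0.0636 for L1Md sense, −0.0360 to 0.107 for L1Md antisense, −0.0126 to 0.0239 for older L1 sense, −0.0143 to 0.0525 for older L1 antisense, −0.000236 to 0.00277 for L2 sense and −0.000798 to 0.00171 for L2 antisense reads. CR1 and RTE sense reads, added after seeing the data, ran from −0.00129 to 0.00012. The L1Md to older L1 ratio ran from −0.0325 to 0.0949, the percentage of sense reads from −2.89 to 0.838 points for L1Md and from −2.75 to 0.467 points for older L1. As a share of repeat antisense reads instead of all reads, the differences of older L1 and L2 were −0.461 and −0.208 points. That denominator includes antisense rRNA repeats, which separated the genotypes. They were 0.0632% and 0.104% of all reads in *Nef-sp*+/- against 0.208% and 0.153% in *Nef-sp*-/-. Their part in the 2 negative differences was not tested.

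Log2 fold changes that changed sign with the library left out had these sense ranges: HAL1-3A_ME −0.0197 to 0.24, L1MEf −0.0337 to 0.17, L1Md_A −0.0662 to 0.24, L1Md_F −0.12 to 0.23, L1Md_F2 −0.0506 to 0.20, L1Md_F3 −0.0957 to 0.20, L1Md_Gf −0.0581 to 0.16, L1Md_T −0.0792 to 0.20, L1_Mm −0.0556 to 0.11, L1_Mur1 −0.0348 to 0.0774, L1_Mus2 −0.13 to 0.0106, L2a −0.0775 to 0.0204, L2b −0.0512 to 0.11, L2c −0.0164 to 0.15 and L4 −0.11 to 0.0266. The antisense ranges were HAL1-2a_MD −0.20 to 0.22, L1M2 −0.0700 to 0.0877, L1Md_A −0.13 to 0.36, L1Md_F −0.072 to 0.27, L1Md_F2 −0.11 to 0.30, L1Md_F3 −0.0952 to 0.30, L1Md_Gf −0.0977 to 0.27, L1Md_T −0.089 to 0.30, L1_Mm −0.15 to 0.37, L1_Mus1 −0.0825 to 0.20, L2a −0.14 to 0.0696, L2b −0.11 to 0.0351, L2c −0.12 to 0.0651, L3 −0.17 to 0.0399, L4 −0.12 to 0.0611, Lx −0.0654 to 0.00643, Lx2A1 −0.0353 to 0.45 and Lx8 −0.0332 to 0.0275. Values that kept their sign but moved by over 1.5 times were L1MA10 (−0.79 to −0.24), L1MA4A (−0.42 to −0.19) and L3b (−0.44 to −0.0472) in antisense, and L1MD1 (−0.37 to −0.16), L1MEe (−0.49 to −0.24), L1VL2 (0.0911 to 0.24), L3 (−0.0883 to −0.0120), L5 (0.11 to 0.29), Lx2B (0.0776 to 0.16) and Lx5 (0.00259 to 0.0780) in sense orientation, and L1MA4A (0.28 to 0.54), L1MA6 and L1MCa in the strand comparison. When scaled to all reads of the table, the antisense values of L2a, L2c, L4 and Lx became 0.00335, 0.0159, 0.0124 and 0.0106. In the single fit over all categories, antisense L2a, L2b, L2c, L4 and Lx and sense L2a became 0.0192, 0.0153, 0.0303, 0.0265, 0.0263 and 0.00215. Lx8 antisense became −0.0045 with at least 10 counts in every library and −0.0108 with no filter. With 2 libraries per genotype, the replicate spread and not the depth limited what could be resolved for L1Md.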
